A study of Mus musculus with 2 samples.

Results

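The 10 genes described here encode isoenzymes and transporters that move glucose into a cell and through glycolysis, and they were taken by name: the hexokinase genes Hk1 and Hk2, the phosphofructokinase genes Pfkp, Pfkl and Pfkm, the pyruvate kinase gene Pkm, the lactate dehydrogenase genes Ldha and Ldhb, and the glucose transporter genes Slc2a1 and Slc2a3. All 10 were present among the 19714 genes of the P24-30 table and the 24858 genes of the P12 table, which share 16055 gene names. The tables come from Drop-seq, a droplet method that reads the 3′ ends of transcripts from single cells, run on mouse medulloblastoma. Medulloblastoma is a tumour of the cerebellum, and in these mice it arises from the granule cell lineage under constant Sonic hedgehog (SHH) signalling.

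One library came from tumours of postnatal days 24 to 30 (P24-30) and the other from tumours of postnatal day 12 (P12). Both carried the genotype hGFAPcre;Ptchc/c, in which Cre recombinase under a human GFAP promoter removes Ptch, the receptor that holds SHH signalling back, so every cell compared here comes from a Ptch-deleted model and no wild-type cerebellum was included. The GFAP promoter is active in early neural precursors and astrocytes, so the deletion is not confined to granule cell progenitors. With 1 library per age and no number of animals given, no value below has a replicate check and no test was made between classes or ages. Intervals are exact 95% intervals (Poisson for a level, conditional for a ratio, binomial for a share) that cover counting error only. Levels are in CPM, that is UMIs of a gene summed over the cells of a class, per 1000000 UMIs of all genes in those cells, where a UMI is 1 counted transcript molecule.

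The P24-30 library held 4991 cells with 12284458 UMIs (median 2149, range 221 to 50361) and the P12 library 6000 barcodes with 12265399 UMIs (median 1778, range 1 to 15050). After filtering, 4796 cells at P24-30 and 5723 cells at P12 remained. Each P24-30 cell name starts with 1 of 16 tags (G1 to G16), whose meaning the labels do not give. By marker genes, G11, G12 and G13 were neuron-like (837 cells), and G1, G2, G3, G6 and G16 were cycling (2339 cells). Tag G8 was microglia-like (35 cells) and G9 astrocyte-like (11 kept cells), too few to enter the ranges. The other 6 tags met no marker rule and stay unnamed. Tag G13 also passed the limit for choroid plexus (mean log2 fold of 3.16 over its markers, beside 0.99 over the neuron markers), and its leading genes by fold include Enpp2 and Ttr. It is called neuron-like because the neuron rule was applied first. Without G13 the ratios over cycling tags were 0.29 for Hk2, 3.37 for Pfkm, 3.27 for Ldhb and 4.94 for Slc2a3, beside 24.3% of all genes past 2-fold, and Pfkp was under the minimum of 50 UMIs. P12 cells were clustered without the 10 genes and without the other glycolysis genes, so the levels below did not shape the clusters. The classes were neuron-like (549 cells in 1 cluster), cycling (3364 cells in 6 clusters), glial (144 cells, of which 106 were oligodendrocyte-lineage-like and 38 astrocyte-like) and microglia-like (81 cells). The 16 neuron markers summed to 21036 CPM in P12 neuron-like cells, against 3429 CPM in P12 cycling cells. At P24-30 the same list summed to 12197 CPM in neuron-like tags, against 3574 CPM in cycling tags. Tags were not pure. Cells that clustered with microglia, oligodendrocyte, endothelial or mixed choroid plexus and astrocyte genes held 13.97% of the UMIs of G13 and 14.9% of those of G14, and 0.262% to 6.28% in the other tags with at least 50 kept cells, so results by tag are also given without these 186 cells.

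Glycolysis splits glucose into pyruvate and yields ATP quickly, and lactate dehydrogenase turns pyruvate into lactate and back. Proliferating cells, granule cell progenitors and SHH medulloblastoma among them, run glycolysis fast even with oxygen present, and Hk2 is known as a gene that SHH induces in mouse cerebellar progenitors. Most of the steps are served by isoenzymes from separate genes with different kinetics: Hk1 is the general hexokinase of mature brain and Hk2 an inducible one, and tetramers rich in the Ldha product favour lactate formation whereas those rich in the Ldhb product favour its use. Because Drop-seq counts 3′ ends, a transcript gives 1 UMI whatever its length, and shares within an isoenzyme family are shares of UMIs with no length correction.

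Promoter sequence is shown for 4 genes that separated the cell classes or carry the family shares described below. Each window runs from 250 bases before to 50 bases after a transcript start and is taken from RefSeq on GRCm38.p6. Capitals mark ACGTG, the core letters of the hypoxia response element through which hypoxia-inducible factor acts on many glycolysis genes, and CACGT, the same letters on the other strand. The letters overlap CACGTG, the E-box of MYC family factors, so a CACGTG counts once for each strand. The Ldha window, from the first of its 2 starts, lies at chr7:46845554-46845853 (+ strand), the Hk2 window at chr6:82774405-82774704 (− strand), the Pkm window, from the second of its 2 starts, at chr9:59656977-59657276 (+ strand), and the Ldhb window at chr6:142507908-142508207 (− strand).
Ldha: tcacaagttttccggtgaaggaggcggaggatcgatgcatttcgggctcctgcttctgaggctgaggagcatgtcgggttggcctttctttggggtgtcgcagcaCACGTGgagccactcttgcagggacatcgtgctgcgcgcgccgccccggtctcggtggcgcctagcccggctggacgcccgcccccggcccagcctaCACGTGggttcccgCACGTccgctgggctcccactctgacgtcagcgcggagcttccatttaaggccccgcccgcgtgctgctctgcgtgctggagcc
Hk2: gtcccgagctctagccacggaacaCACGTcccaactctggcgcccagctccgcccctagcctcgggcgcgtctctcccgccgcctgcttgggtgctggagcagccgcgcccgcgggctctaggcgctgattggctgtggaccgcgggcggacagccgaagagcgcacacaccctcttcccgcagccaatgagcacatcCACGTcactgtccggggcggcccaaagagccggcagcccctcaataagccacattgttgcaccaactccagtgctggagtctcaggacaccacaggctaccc
Pkm: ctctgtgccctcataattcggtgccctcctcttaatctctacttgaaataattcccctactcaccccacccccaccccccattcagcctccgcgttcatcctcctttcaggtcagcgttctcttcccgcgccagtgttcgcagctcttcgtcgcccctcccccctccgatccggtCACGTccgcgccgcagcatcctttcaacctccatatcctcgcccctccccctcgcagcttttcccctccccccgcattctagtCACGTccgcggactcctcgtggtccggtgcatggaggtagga
Ldhb: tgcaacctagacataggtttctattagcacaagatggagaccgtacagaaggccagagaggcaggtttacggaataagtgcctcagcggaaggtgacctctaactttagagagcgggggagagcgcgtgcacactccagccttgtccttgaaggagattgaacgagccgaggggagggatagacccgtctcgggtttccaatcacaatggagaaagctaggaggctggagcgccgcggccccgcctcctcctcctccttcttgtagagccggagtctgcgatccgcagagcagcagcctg
The Ldha window held 5 matches to ACGTG over both strands, including 2 CACGTG words, the Hk2 window held 2 and the Pkm window 2, and the Ldhb window held 0. The windows at the other start of Ldha and of Pkm, not shown, held 0 as well. Of the 15 windows found for 9 of the 10 genes, 7 windows of 6 genes (Hk1, Hk2, Pfkm, Pkm, Ldha and Slc2a1) held ACGTG. The same letters stood in 19.6% of the 32851 windows of all genes, and CACGTG in 7.15% of them. The GLI motif GACCACCCA stood in 0 of the 15 windows and in 0.253% of all windows. A match describes these letters in this window and says nothing of whether a factor binds there.

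Neuron-like cells differed from cycling cells in which isoenzyme they carried. In both libraries neuron-like cells held less Hk2 and Pkm and more Ldhb, Hk1 and Pfkp, in CPM, than cycling cells. Hk2 was at 0.24 of its cycling level at P12 (interval 0.15 to 0.37) and at 0.31 at P24-30 (0.22 to 0.44). Without cells of other types the P24-30 value for Hk2 was 0.33 (0.23 to 0.48). Ldhb was 2.91-fold higher at P12 (2.45 to 3.43) and 3.76-fold higher at P24-30 (3.25 to 4.34). Of the 9 genes with at least 50 UMIs over both P12 classes, 3 were at least 2-fold higher and 1 at least 2-fold lower in neuron-like cells, beside 11.7% and 16.2% of the 10464 genes so counted (27.9% either way). Of the 7 genes that reached the minimum at P24-30, 4 were higher and 1 lower in neuron-like tags, beside 13.4% and 7.81% of 10009 genes (21.2% either way). Without cells of other types these were 3 and 1 of 6 genes, beside 20% (1961 of 9794). Their median log2 ratio was 0.21 at P12, where that of all genes was -0.04, and 1.29 at P24-30, where that of all genes was 0.17. Without cells of other types the P24-30 median was 0.34, beside 0.15 for all genes.

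**Figure D1:**
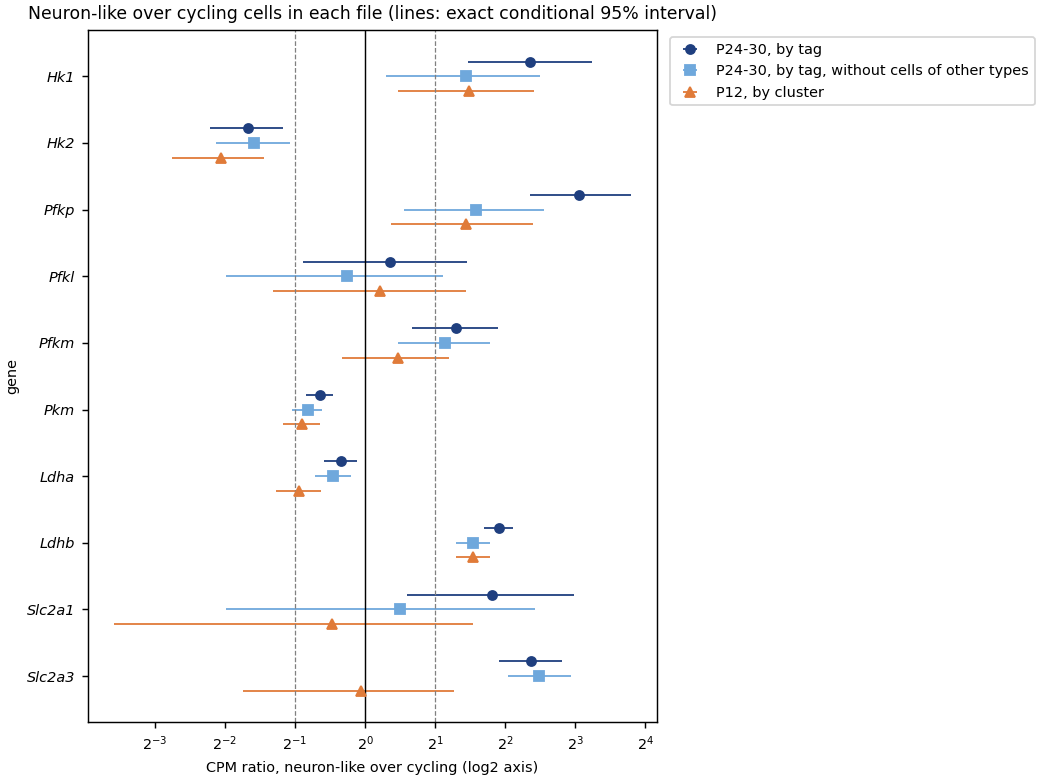
CPM ratio of neuron-like over cycling cells for each gene (log2 axis), at P24-30 by tag, at P24-30 by tag without cells of other types, and at P12 by cluster. Lines are exact conditional 95% intervals and dashed lines mark the 2-fold limits. Hk2 lay left of the lower limit and Ldhb right of the upper limit in all 3 sets, and the Pfkp point for the tags lay at 8.34 with cells of other types and at 2.99 without them.

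Uptake is the step with the thinnest counts. Slc2a1 encodes GLUT1, the glucose transporter of the blood-brain barrier and of many dividing cells, and Slc2a3 encodes GLUT3, the high-affinity transporter of neurons. Slc2a1 gave 61 UMIs in the kept P24-30 cells and 47 in the P12 cells, and Slc2a3 gave 264 and 80. In P12 neuron-like cells Slc2a3 stood at 5.76 CPM (5 UMIs), against 5.99 CPM (47 UMIs) in P12 cycling cells, a ratio of 0.96 with an interval of 0.30 to 2.41. A neuronal excess was therefore not detectable at this depth at P12, and the interval leaves room for one of up to 2.41-fold.

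At P24-30 Slc2a3 was higher in the neuron-like tags, at 57.3 CPM in G11, 57.8 CPM in G12 and 61.3 CPM in G13. The cycling tags held 5.64 CPM in G1, 10.96 CPM in G2, 23.4 CPM in G3, 20.6 CPM in G6 and 5.82 CPM in G16. The tag levels did not overlap, but their intervals did. The lower bound of G11 (28.6 CPM) lies below the upper bound of G3 (38.6 CPM). How many of all genes separate these tags was not counted, here or for the genes below. The summed ratio was 5.14 (3.78 to 7.01), and 5.62 (4.12 to 7.66) without cells of other types. A few cells carried much of this excess. In 11 cells Slc2a3 gave 4 or more UMIs, and these held 102 of the 264 UMIs (38.6%). All 11 lay in 3 unnamed, shallow clusters (each with a median UMI count below 0.5 of the median over the library), and a single G13 cell of 1754 UMIs held 38 of them. Without those 11 cells the neuron-like tags held 15.6 CPM in G11, 33.5 CPM in G12 and 19.1 CPM in G13, against 5.64 to 13.4 CPM in the cycling tags. Without all 253 cells of these clusters the ratio was 1.33. In the neuron-like cluster built from the P24-30 cells Slc2a3 stood at 18.3 CPM (11.2 to 28.2), and by clusters the ratio over cycling cells was 1.86.

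The highest tag for Slc2a3 was the unnamed G10, at 429 CPM (287 to 616), where 64 of 77 cells lay in the same 3 clusters and where 88.8 CPM remained without the cells of 4 or more UMIs. The smallest of these clusters (22 cells) held Slc2a3 at 2536 CPM, or 83 UMIs, and its leading genes were Casp2, Far2 and Nup62cl, with Slc2a3 itself among the top 10. What these cells are was not tested. At P12 no cell held more than 2 Slc2a3 UMIs.

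Slc2a1 was concentrated in vessel cells. In the P24-30 library 10 endothelial-like cells, led by Ly6c1, Igfbp7, Flt1 and Cldn5, held 31 of the 61 UMIs, or 618 CPM (420 to 877), and no Slc2a3. Of these 31 UMIs, 24 came from 3 cells tagged G14, the tag with the highest Slc2a1 at 44.1 CPM. Without cells of other types G14 held 3.71 CPM, inside the 0 to 5.56 CPM of the other 13 tags on the same filter. Within the granule lineage Slc2a1 was too sparse to compare, at 3 UMIs in neuron-like tags and 11 UMIs in cycling tags once those cells were left out.

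**Figure D2:**
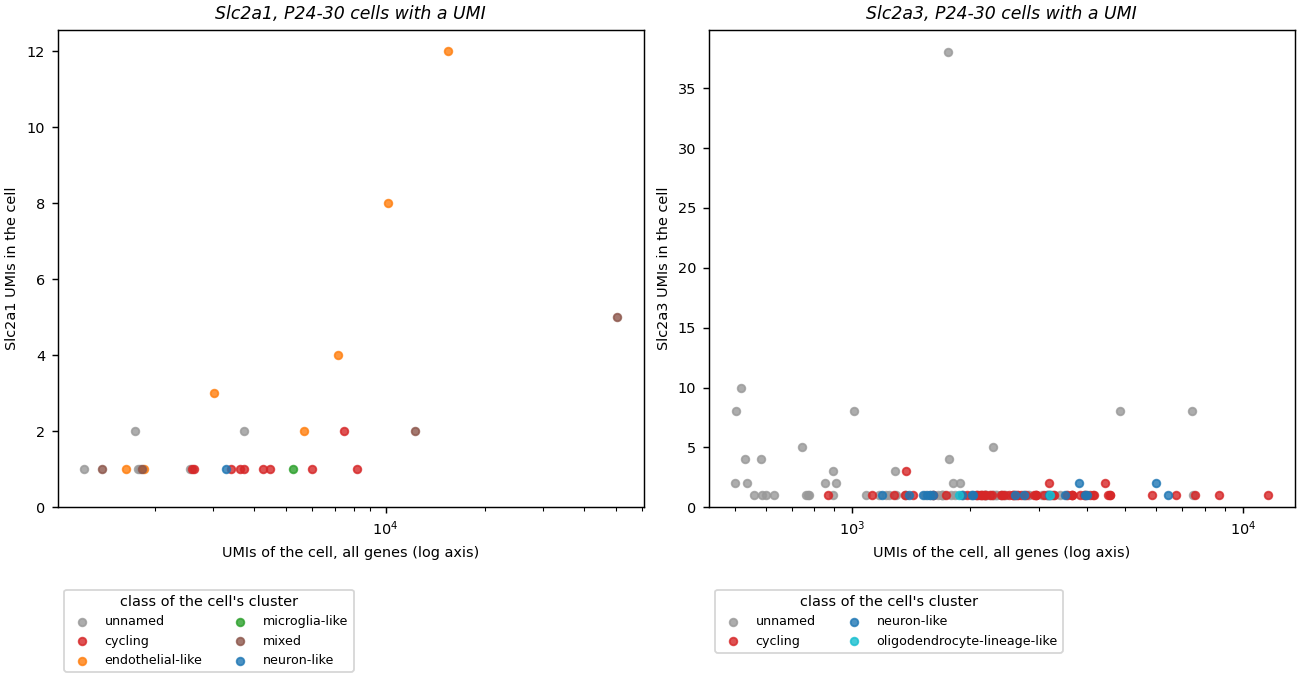
UMIs of Slc2a1 (left) and Slc2a3 (right) in each P24-30 cell with at least 1, against the total UMIs of the cell (log axis), coloured by the class of its cluster. Endothelial-like cells reached 12 Slc2a1 UMIs, and the Slc2a3 values of 4 or more, up to 38, all lay in unnamed clusters.

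Hexokinases commit glucose to the cell by phosphorylating it. Hk2 was the main hexokinase of cycling cells in both libraries. By tag it stood at 15.6 CPM in G11, 24.3 CPM in G12 and 24.1 CPM in G13, against 80.6 CPM in G1, 65.8 CPM in G2, 84.3 CPM in G3, 76.2 CPM in G6 and 75.6 CPM in G16. Every cycling tag was above every neuron-like tag, with no overlap of their intervals, a separation not counted over all genes. The intervals of the 5 cycling tags overlapped each other, as did those of the 3 neuron-like tags. Of the unnamed tags, G4, G5, G7 and G15 lay between, at 48.5 to 55.5 CPM, while G14 at 22.1 CPM stood with the neuron-like ones. Tag G10 at 29.6 CPM, on 2 UMIs (3.58 to 107), could be placed with neither group. At P12 neuron-like cells held Hk2 at 24.2 CPM (14.99 to 37.0, 21 UMIs), against 101 CPM (94.1 to 108, 792 UMIs) in cycling cells, whose 6 clusters ran from 82.6 to 116 CPM.

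Hk1 ran the other way at low counts. P12 neuron-like cells held 14.99 CPM (13 UMIs) and P12 cycling cells 5.36 CPM (42 UMIs), a ratio of 2.80 (1.38 to 5.31). At P24-30 the neuron-like tags held 16.5 CPM (25 UMIs) and the cycling tags 3.24 CPM (23 UMIs), 2 UMIs short of the minimum for the fold count. That ratio of 5.10 (2.78 to 9.40) became 2.70 (1.23 to 5.66) without cells of other types. Hk2 made up 61.8% of hexokinase UMIs (Hk1 and Hk2 together) in P12 neuron-like cells and 94.96% in P12 cycling cells, a difference of -33.2 percentage points (-51.5 to -17.0). At P24-30 the shares were 58.3% in neuron-like tags and 95.8% in cycling tags, and 73.3% against 95.7% without cells of other types.

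Phosphofructokinase makes fructose 1,6-bisphosphate, the committed step of glycolysis, from platelet-type (Pfkp), liver-type (Pfkl) and muscle-type (Pfkm) subunits that mix in tetramers. Pfkp was higher in neuron-like cells in both libraries, with 13.8 CPM (12 UMIs) in P12 neuron-like cells and 5.10 CPM (40 UMIs) in P12 cycling cells, a ratio of 2.71 (1.30 to 5.27). At P24-30 it stood at 20.9 CPM in G11, 15.2 CPM in G12 and 39.2 CPM in G13, against 0 to 8.73 CPM in the 5 cycling tags. The tag levels did not overlap, but their intervals did. The lower bound of G12 (4.94 CPM) lies below the upper bound of G16 (15.2 CPM). In G13, 1 mixed-cluster cell of 50361 UMIs held 12 of the 104 Pfkp UMIs of the library. In the whole cluster of that cell (73 cells, led by the choroid plexus genes Ttr and Enpp2) Pfkp stood at 107 CPM. Choroid plexus markers summed to 17402 CPM in G13, against 90.3 CPM in G1. Without cells of other types Pfkp in G13 was 7.01 CPM, below the 8.75 CPM of cycling tag G16, so the groups then overlapped. The ratio of 8.34 (5.10 to 13.9) became 2.99 (1.47 to 5.86). That lower ratio rests on 15 UMIs in neuron-like tags and 26 UMIs in cycling tags, under the minimum for the fold count.

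Pfkm was 2.45-fold higher in neuron-like tags at P24-30 (1.59 to 3.71), at 23.8 CPM against 9.71 CPM in cycling tags, and 2.21-fold higher (1.38 to 3.46) without cells of other types. At P12 it stood at 20.8 CPM in neuron-like cells and 14.9 CPM in cycling cells, a ratio of 1.39 whose interval (0.80 to 2.30) holds both no difference and the P24-30 value without other types. Pfkl did not separate the classes, with ratios of 1.15 (0.40 to 2.71) at P12, 1.28 (0.54 to 2.73) at P24-30 and, without cells of other types, 0.84 (0.25 to 2.17) at P24-30. The Pfkp share of phosphofructokinase UMIs was 33.3% in P12 neuron-like cells and 19.6% in P12 cycling cells, a difference of 13.7 percentage points with an interval of -2.27 to 32.1. At P24-30 it was 51.6% in neuron-like tags against 20.9% in cycling tags, and 30.6% against 20.8% without cells of other types.

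Pyruvate kinase makes pyruvate in the last ATP-yielding step, and Pkm encodes both its splice forms, which 3′ counts cannot separate. It gave the most UMIs of the 10 genes, 3064 at P24-30 and 3270 at P12. Neuron-like tags held Pkm at 141 CPM in G11, 146 CPM in G12 and 181 CPM in G13, against 234 CPM in G1, 280 CPM in G2, 276 CPM in G3, 294 CPM in G6 and 229 CPM in G16. The groups did not overlap, though the upper bounds of G11 (205 CPM) and G13 (209 CPM) reach the lower bound of G16 (204 CPM). The ratio was 0.64 (0.56 to 0.73) at P24-30, and 0.57 (0.49 to 0.66) there without cells of other types. At P12 it was 0.53 (0.45 to 0.64), with 151 CPM in neuron-like cells and 282 CPM in cycling cells. These ratios stopped short of the 2-fold limit.

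Lactate dehydrogenase was mostly Ldhb in neuron-like cells and mostly Ldha in cycling cells. Ldhb, the form that favours lactate oxidation, stood at 151 CPM in G11, 222 CPM in G12 and 240 CPM in G13, against 45.9 CPM in G1, 58.1 CPM in G2, 71.8 CPM in G3, 80.6 CPM in G6 and 53.8 CPM in G16. The neuron-like and cycling tags did not overlap, nor did their intervals, a separation not counted over all genes. The unnamed tags filled the gap, from 95.2 CPM in G5 to 132 CPM in G15. At P12 neuron-like cells held 217 CPM (187 to 250, 188 UMIs), against 74.6 CPM (68.7 to 80.9, 585 UMIs) in cycling cells.

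The same large G13 cell held 72 Ldhb UMIs, 6.06% of all Ldhb UMIs of the library. Without cells of other types G13 stood at 155 CPM, and the ratio of neuron-like over cycling tags was 2.91 (2.47 to 3.43), at 172 CPM against 59.1 CPM. The 1 annotated gene that resembles Ldhb at its 3′ end, Gm5514, had 98 UMIs at P12. Adding it to Ldhb left the P12 ratio at 2.98 (2.53 to 3.49).

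Ldha, the form that favours lactate formation and a textbook target of hypoxia-inducible factor and MYC, separated the classes less. P12 neuron-like cells held 103 CPM (89 UMIs), against 197 CPM (1546 UMIs) in P12 cycling cells, a ratio of 0.52 (0.42 to 0.64). At P24-30 the neuron-like tags lay at 103 to 121 CPM, inside the range of the cycling tags (79.8 to 213 CPM). The summed ratio was 0.79 (0.67 to 0.93), and 0.73 (0.61 to 0.87) without cells of other types. Ldhb made up 67.9% of lactate dehydrogenase UMIs in P12 neuron-like cells and 27.5% in P12 cycling cells, a difference of 40.4 percentage points (34.3 to 46.2). At P24-30 the shares were 66.2% in neuron-like tags and 29.1% in cycling tags, a difference of 37.1 points (32.2 to 41.8), and 61.7% against 28.7% without cells of other types. Over the 14 tags with at least 50 kept cells the Ldhb share ran from 26.9% in G10 to 68.2% in G12, with a median of 37.7%. It passed 50% in 4 tags: G15, G11, G13 and G12. The G10 share rests on 26 UMIs (11.6 to 47.8), and 1 cell held 12 of the 19 Ldha UMIs of that tag. Ldha has 19 annotated copies that resemble its 3′ end and Pkm has 8, of which the P12 table lists 1 and 2 and the P24-30 table lists none, so reads shared with a copy may have been assigned differently in each table.

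**Figure D3:**
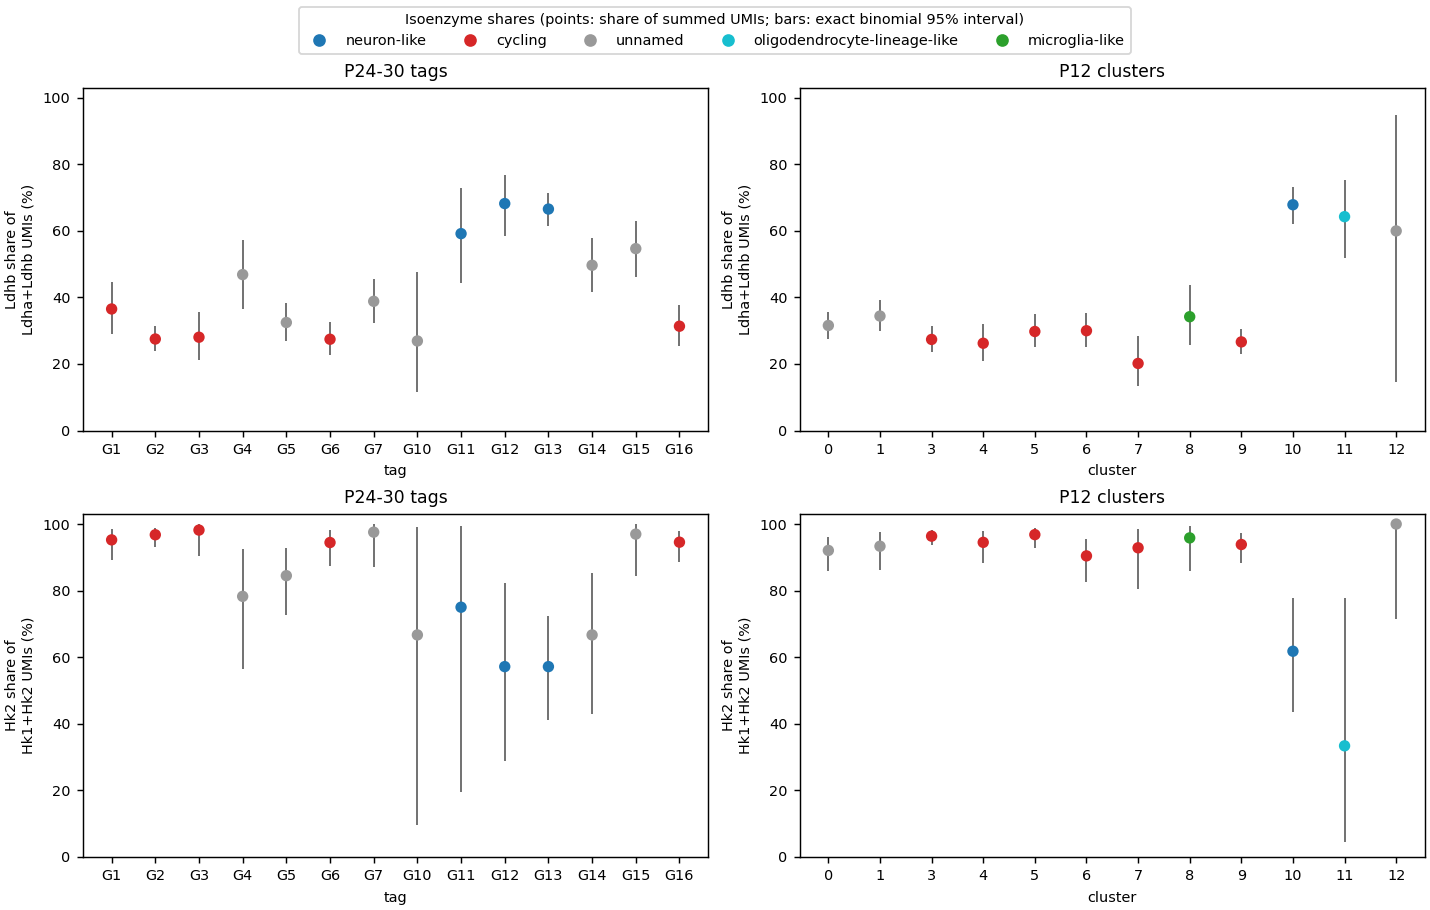
Share of Ldhb in Ldha and Ldhb UMIs (top) and of Hk2 in Hk1 and Hk2 UMIs (bottom), for P24-30 tags (left) and P12 clusters (right) with at least 50 kept cells. Bars are exact binomial 95% intervals and colours give the class. The Ldhb share was highest in neuron-like tags and in the neuron-like and oligodendrocyte-lineage-like P12 clusters, and the Hk2 share was lowest in tags G12 and G13 (57.1% each) and in the oligodendrocyte-lineage-like P12 cluster (33.3%, 2 of 6 UMIs).

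**Figure D4:**
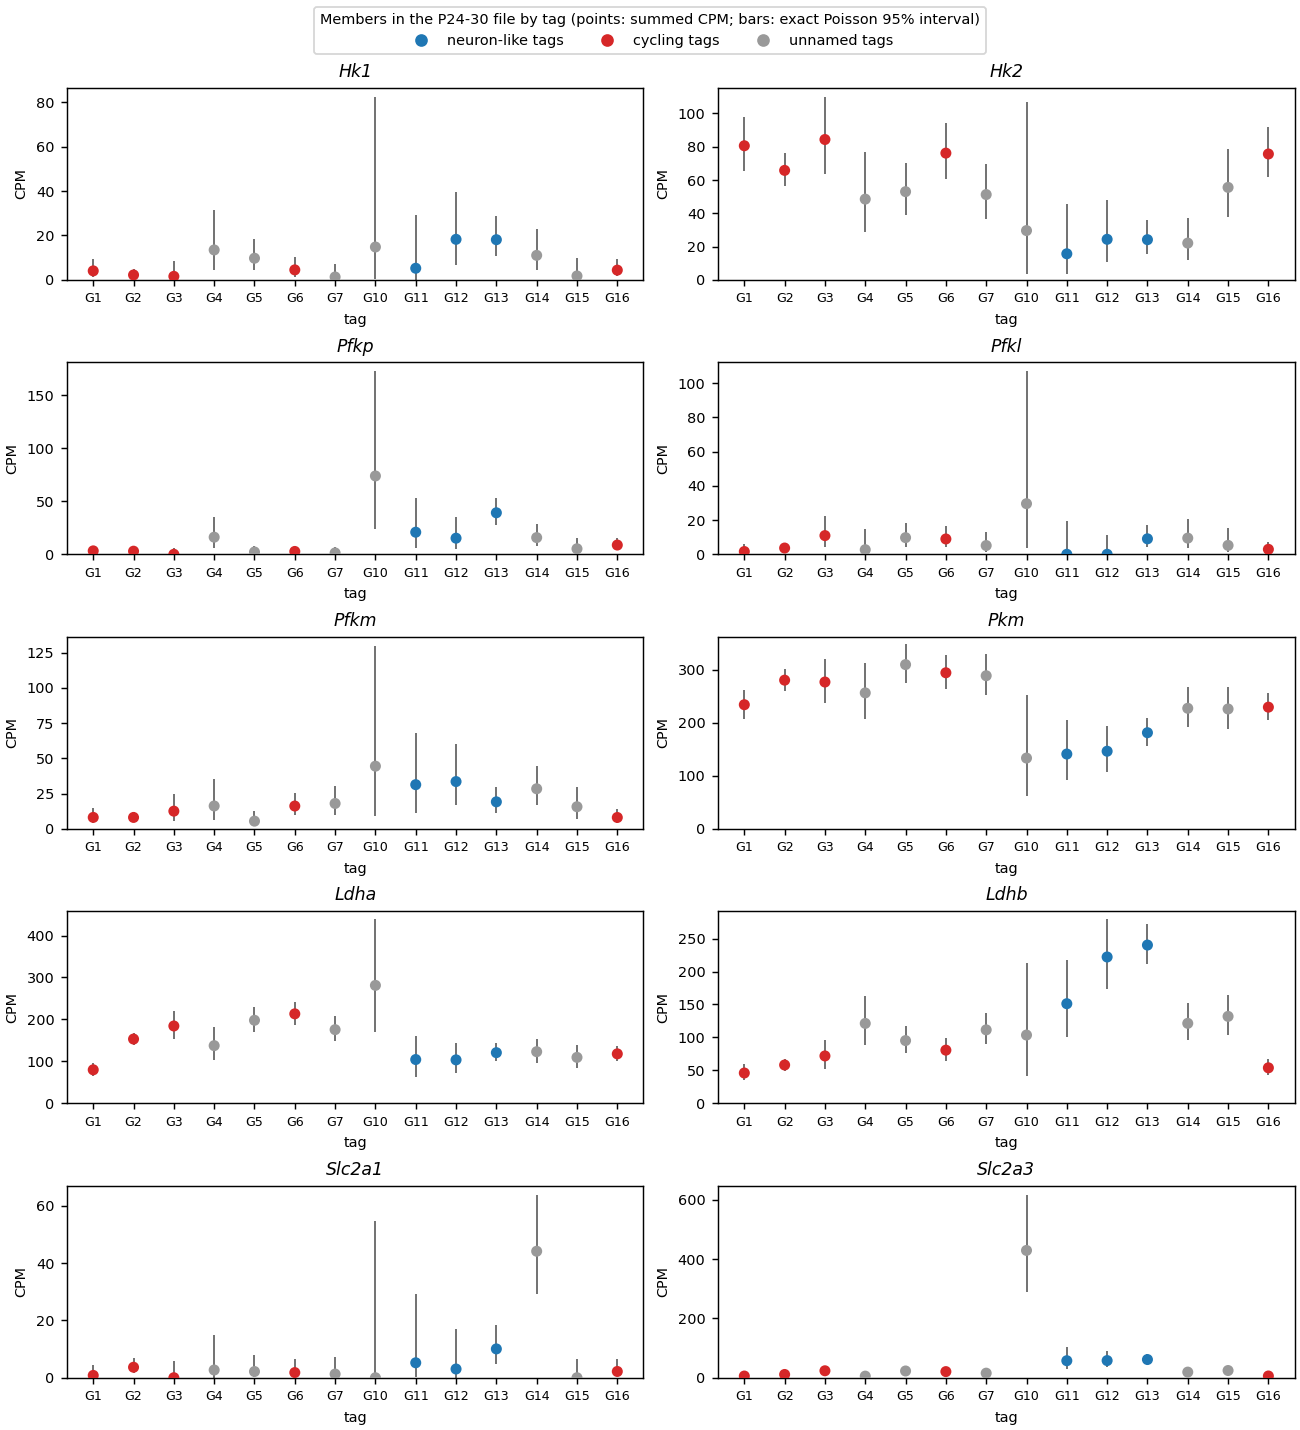
Summed CPM of each gene in the 14 P24-30 tags with at least 50 kept cells, with exact Poisson 95% intervals. Neuron-like tags are blue, cycling tags red and unnamed tags grey. Hk2 and Pkm were lower and Ldhb higher in the neuron-like tags, and Slc2a3 in G10 and Slc2a1 in G14 stood apart.

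Glial cells at P12 resembled neuron-like cells in Hk2 and Ldhb. The 144 glial cells held Hk2 at 29.0 CPM (8 UMIs), against 101 CPM in cycling cells, a ratio of 0.29 (0.12 to 0.57), and Ldhb at 221 CPM (61 UMIs), against 74.6 CPM, a ratio of 2.96 (2.24 to 3.86). Pfkp stood at 32.6 CPM, 6.39-fold above cycling cells (2.73 to 13.4), on 9 UMIs, and with 49 UMIs over both classes was under the minimum. Ldha differed by less than its counting error (0.97, 0.73 to 1.28) and Pkm was at 0.76 (0.57 to 0.98). Of the 7 genes with enough UMIs, 3 passed 2-fold (Hk2, Ldhb and Slc2a3), beside 28.7% of all genes. Slc2a3 did so on 4 UMIs, at 14.5 CPM against 5.99 CPM in cycling cells (2.42, 0.63 to 6.61). The class mixes unlike cells: Hk2 was 10.1 CPM (2 UMIs) and Ldha 126 CPM in the 106 oligodendrocyte-lineage-like cells, whereas the 38 astrocyte-like cells held 76.9 CPM (6 UMIs) and 359 CPM (28 UMIs). The Ldhb share of lactate dehydrogenase was 64.3% (51.9 to 75.4) in the oligodendrocyte-lineage-like cells and 36.4% (22.4 to 52.2) in the astrocyte-like cells, intervals that overlap slightly.

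Microglia-like cells, the resident macrophages by marker, held the highest levels of Hk2, Pkm and Ldha among the P12 clusters. Hk2 stood at 226 CPM (46 UMIs), 2.24-fold above the 101 CPM of cycling cells (1.62 to 3.01), Pkm at 555 CPM, 1.97-fold above 282 CPM (1.61 to 2.38), and Ldha at 369 CPM, 1.87-fold above 197 CPM (1.46 to 2.36). Ldhb was also higher, at 192 CPM against 74.6 CPM (2.57, 1.81 to 3.55), so both lactate dehydrogenase genes were up together and the Ldhb share was 34.2% (25.6 to 43.7), against 27.5% in cycling cells. Pfkl, on 8 UMIs, stood at 39.3 CPM, 6.56-fold above cycling cells (2.68 to 14.01), and Pfkm had 1 UMI. Slc2a1 had 6 UMIs (29.5 CPM, against 3.19 CPM in cycling cells), and Slc2a3 had 0 UMIs, with an exact upper bound of 18.1 CPM. Of the 6 genes with enough UMIs 4 passed 2-fold, beside 44.9% of all genes, and since the median gene stood at 0.732 of its cycling level in this class, these counts say little of the 10 genes as a group. Granule lineage genes that microglia should lack summed to 413 CPM here, against 16237 CPM in neuron-like and 3118 CPM in cycling cells. The astrocyte list, which shares Apoe with this cluster's leading genes, summed to 41762 CPM with 5 of its 12 genes at 0. At P24-30 the 35 cells of tag G8 held Hk2 at 141 CPM (72.7 to 246), Pkm at 434 CPM, Ldha at 316 CPM and Ldhb at 199 CPM.

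**Figure D5:**
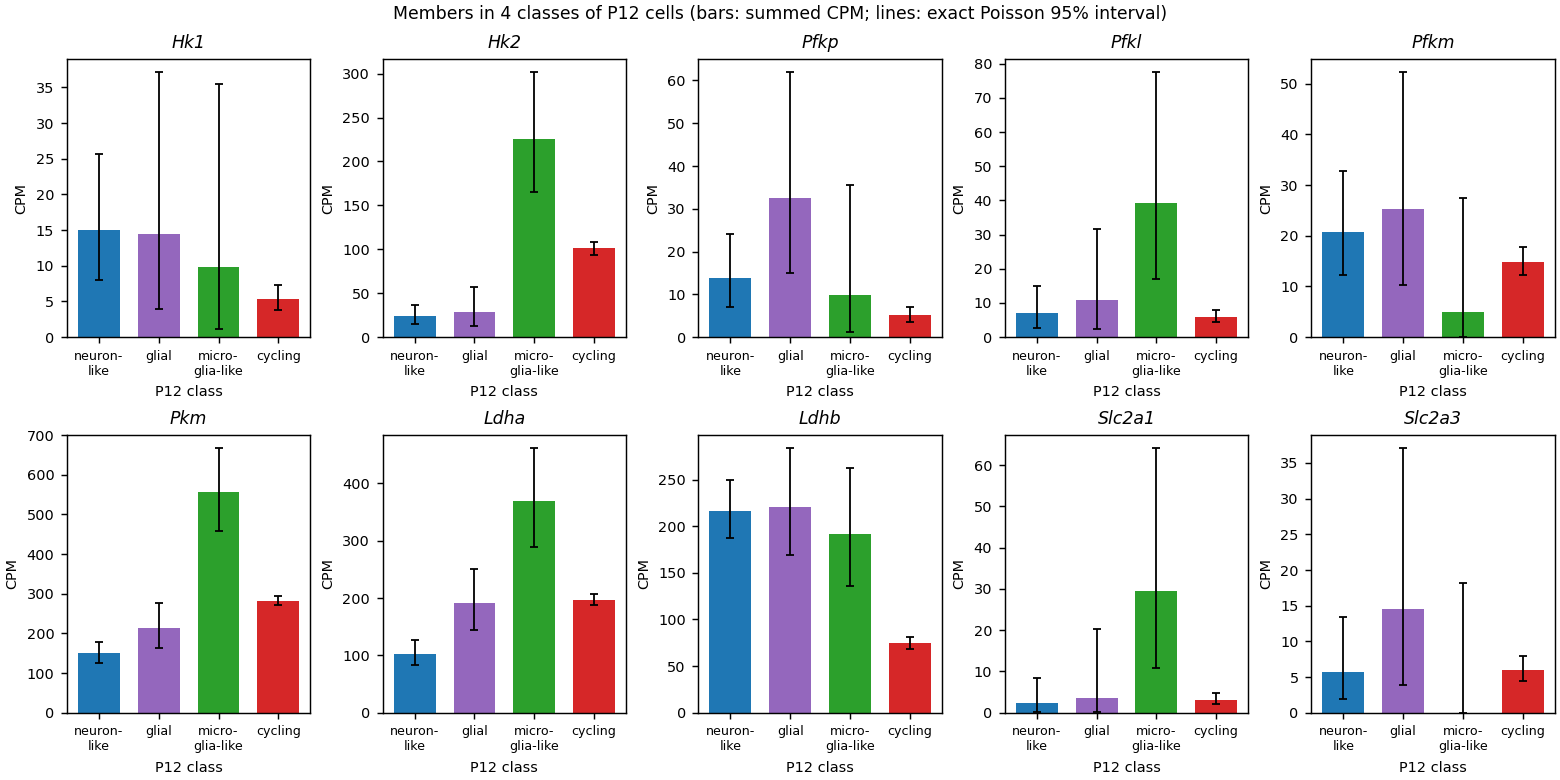
Summed CPM of each gene in 4 classes of P12 cells, with exact Poisson 95% intervals. Hk2, Pkm and Ldha were highest in microglia-like cells and lowest in neuron-like cells, and Ldhb was near 200 CPM or above in neuron-like, glial and microglia-like cells against 74.6 CPM in cycling cells.

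Within cycling cells the lactate dehydrogenases were lower in the groups taken as mitotic than in those taken as S-phase entry. This comparison was added after the levels had been seen, and its groups were not chosen alike in the 2 libraries. The 2 P12 clusters of S-phase entry were chosen by the mean log2 fold of the S markers (0.98 and 1.14). The P24-30 tags of S-phase entry, G3 (0.97) and G6 (0.45), were set by name. Cycling tag G2, which scored higher (0.815) than G6, was left out, with Ldha at 153 CPM and Ldhb at 58.1 CPM. No ratio was computed with it, so the P24-30 ratios hold for the chosen tags only. P12 cycling clusters 4, 5 and 7 were left out as well, with Ldha at 170, 184 and 213 CPM (172 to 260 in cluster 7). Cluster 7 had the G2/M markers Ccnb2, Cdc20, Cenpa and Tpx2 among its leading genes. At P12 the mitotic cluster (859 cells) held Ldha at 150 CPM, against 262 CPM in the 2 clusters of S-phase entry (1199 cells), a ratio of 0.57 (0.50 to 0.65), and Ldhb at 56.4 CPM against 102 CPM (0.55, 0.45 to 0.69). Pkm was at 0.70 (0.63 to 0.78) and Hk2 at 1.37 (1.14 to 1.65). At P24-30 the mitotic tags G1 and G16 (770 cells) held Ldha at 99.8 CPM, against 203 CPM in G3 and G6 (677 cells), a ratio of 0.49 (0.42 to 0.58). Ldhb was at 0.65 (0.50 to 0.83), Pkm at 0.80 (0.71 to 0.91) and Hk2 at 0.99 (0.79 to 1.23). The Ldhb share was 27.4% in mitosis and 27.9% at S-phase entry at P12, and 33.4% (28.8 to 38.3) against 27.6% (23.7 to 31.8) at P24-30, with overlapping intervals. At P12, 0 of 5 genes passed 2-fold, beside 8.49% of all genes, and at P24-30 2 of 5 (Ldha and Slc2a3), beside 7.47%. Of the cycling tags, G3 and G6 held the highest levels of both genes and were set once levels were known. The P24-30 count therefore cannot be read as an excess over all genes. Slc2a3 stood there on 15 UMIs in mitotic tags and 38 in those of S-phase entry. Without cells of shallow clusters these were 15 and 22, under the minimum, and 1 of 4 genes passed (Ldha, 0.49, 0.42 to 0.58), beside 7.42%.

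Between ages, Slc2a3 differed most of the genes past the UMI minimum, by an excess that shrank without the shallow clusters. Ages are compared relative to the median gene, whose CPM at P24-30 was 0.798 of that at P12 in cycling cells and 0.847 in neuron-like cells, and age cannot be told apart from the library or from how each table was counted. In cycling cells 1 of 9 genes passed 2-fold, beside 13.8% of all genes: Slc2a3 was 2.44-fold higher at P24-30 (1.69 to 3.57), at 11.7 CPM against 5.99 CPM at P12. The other genes of that count lay between 0.76 and 1.17. Slc2a3 passed neither as a plain CPM ratio (1.95) nor without the shallow clusters. In neuron-like cells 2 of 7 passed, beside 18.5%: Slc2a3 at 12.3 (5.08 to 38.8) and Pfkp at 2.70 (1.41 to 5.59). Neither held its value when cells were left out, since without the shallow clusters Slc2a3 was at 2.63, and without cells of other types Pfkp was at 0.95 (0.42 to 2.23) and 1 of 5 genes passed, beside 17.3%. Without tag G13, 0 passed, a count with no share of all genes beside it. Hk2, Pkm, Ldha and Ldhb in neuron-like cells lay between 1.13 and 1.32 relative to the median gene, and Ldhb stood at 225 CPM at P24-30 and 217 CPM at P12. Ldhb lost this direction without cells of other types, at 0.94 (0.77 to 1.15), with 172 CPM at P24-30 against 217 CPM at P12.

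Other genes of the pathway were followed in a list of 69, of which 64 are in the P24-30 table and 62 in the P12 table. In P12 neuron-like cells 6 of the 39 with at least 50 UMIs were at least 2-fold higher than in cycling cells and 6 at least 2-fold lower, beside the 11.7% and 16.2% of all genes given above. At P24-30 7 of 39 were higher in neuron-like tags and 2 lower, beside 13.4% and 7.81%. Without cells of other types 6 of 37 were higher and 3 lower, beside 11.6% and 8.44% of all genes. The median log2 ratio of these genes was 0.11 at P12, against -0.04 for all genes, and 0.49 at P24-30, against 0.17. Without cells of other types the P24-30 median was 0.25, against 0.15. The pathway counts lie near the background in both libraries. Aldoa, the general aldolase, was 2.46-fold higher in P12 neuron-like cells (1.95 to 3.08), at 115 CPM against 46.8 CPM in cycling cells, and 3.50-fold higher (2.85 to 4.28) in neuron-like tags without cells of other types. Slc16a1, which encodes the lactate transporter MCT1, was lower, at 4.61 CPM in P12 neuron-like cells against 23.0 CPM in P12 cycling cells (0.20, 0.05 to 0.52), and at 0.46 (0.20 to 0.91) in the tags.

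The hypoxia-response genes did not move as one. Ddit4, a stress-induced inhibitor of mTORC1, was 2.99-fold higher in P12 neuron-like cells (2.31 to 3.84) and 3.59-fold higher in neuron-like tags (2.88 to 4.48), and Bnip3, a mitophagy gene, 2.91-fold higher at P12 (1.61 to 5.02). Vegfa, the vessel growth factor, stood at 3.46 CPM (3 UMIs) in P12 neuron-like cells, against 22.1 CPM in P12 cycling cells. In the neuron-like tags it was at 1.52 (0.89 to 2.49), and at 0.31 (0.08 to 0.83) without cells of other types. Slc2a8, another glucose transporter gene, also ran in opposite directions, at 0.33 (0.07 to 1.00) at P12 and 1.92 (1.04 to 3.39) in the tags, or 2.05 (1.09 to 3.67) without cells of other types. Ldhd, a D-lactate dehydrogenase, was at 3.49 (1.87 to 6.24) at P12 and 1.92 (1.08 to 3.28) in the tags. Gapdh and Pgk1, of the middle of glycolysis, were at 0.66 (0.58 to 0.76) and 0.68 (0.55 to 0.84) in neuron-like tags. In the tags Slc2a12 was at 3.78 (2.31 to 6.12) but under the UMI minimum without cells of other types, and Slc2a4 was at 0.43 (0.17 to 0.92), or 0.41 (0.15 to 0.94) without them. Eno1 stood at 0.45 (0.25 to 0.74) in P12 neuron-like cells and 1.07 (0.94 to 1.22) in neuron-like tags. In cycling cells the level of Eno1 was 5.48-fold higher at P24-30 than at P12 relative to the median gene, and that of Gapdh 94.6-fold higher. The part that the different counting of the tables has in this was not tested.

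Over the 14 tags, Hk2 and Ldhb followed the neuron markers in opposite directions. The correlation of log2(CPM + 20) with the summed neuron list was -0.92 for Hk2 and 0.92 for Ldhb, as descriptions over tags of 1 library, which differ in depth. Over the 12 P12 clusters with at least 50 cells these were -0.54 for Hk2 and -0.04 for Ldhb. The oligodendrocyte-lineage-like and microglia-like clusters held Ldhb at 227 and 192 CPM beside the 217 CPM of the neuron-like one. Among genes with at least 500 UMIs, those most like Hk2 were Fam111a (Pearson r = 0.95), Hpca (0.94) and Rasl2-9 (0.94), and those most like Ldhb were the mitochondrial genes mt-Co1 and mt-Co3 (both 0.96) and Nrep (0.96). Pkm was most like Prdx1 (0.94), Ncl (0.93) and Prpf19 (0.92), and Ldha most like Rcc2 (0.80), Tma16 (0.79) and Noc2l (0.74). Slc2a3 was most like Casp2 (0.95), a leading gene of the same 22-cell cluster, Paip1 (0.94) and Gm26924 (0.94). Over the same P12 clusters the nearest genes were others: Phf23 (0.85), Clip1 (0.85) and Msn (0.84) for Hk2, and Mtch1 (0.90), Snx10 (0.90) and Sdf2 (0.89) for Ldhb. Those for Ldha were Rplp1 (0.98), Gm4525 (0.98) and Gm10073 (0.97). For Pkm they were P4hb (0.97), Prdx1 (0.96) and Mlec (0.95), so Prdx1 was among the 3 nearest genes to Pkm in both tables.

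In GENCODE vM21 on mm10 Hk2 lies at chr6:82725025-82774454 and Ldhb at chr6:142490249-142507957, both on the − strand, Ldha at chr7:46841475-46855627 and Pkm at chr9:59656368-59679375, both on the + strand. Genes on the opposite strand reach the 3′ ends of Pfkp (Pitrm1), Pfkl (1810043G02Rik) and Slc2a1 (Gm12868), and no source used here says whether reads were counted by strand, so these 3 genes may share reads with a neighbour.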

How the data were processed

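Drop-seq was run on 2 libraries of hGFAPcre;Ptchc/c medulloblastoma, digested to single cells. The P12 table holds whole counts per gene and cell, as deposited, and whether they are collapsed UMIs is not stated, so they were taken as UMIs. The P24-30 table holds natural log values, which the authors made from counts scaled to 10000 per cell, as the deposited values themselves show: dividing by the lowest value of each cell after undoing the log gave whole numbers for 100.0% of 6195642 values (within 0.001). Per the submitters' processing notes, CASAVA and the mm10 build were used, with no version given. The tables list different genes and were counted differently, so classes are compared within a table first.

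Cells under 500 UMIs, or with over 20% of UMIs from mitochondrial genes, were left out, which removed 146 and 49 cells at P24-30 and 9 and 268 at P12. Each table was clustered with scanpy 1.11.5 and igraph 0.11.9 (2000 variable genes without the glycolysis genes, 30 components, 15 neighbours, Leiden resolution 1, seed 1). No doublet caller was run. Cycling needed a mean log2 of 0.3 over G2/M or S markers, neuron-like 0.75 and other types 2.5, both with 3 raised markers. The neuron-like rule was applied first, then other types (more than 1 made a cluster mixed), then cycling. These limits and this order were chosen once the clusters were known. No cell name is shared between the tables, but P24-30 names hold no barcodes, so shared barcodes could not be counted.

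UMIs were summed per class or tag, and ratios of CPM counted as past the limit at 2-fold, for genes with at least 50 UMIs over both classes. Age ratios were divided by the median ratio of the shared genes. Computations used Python 3.11.15, numpy 2.4.6, scipy 1.17.1 and pandas 2.3.3, figures matplotlib 3.10.9, and gene copies were sought with BLAST 2.17.0 (last 500 bases, 90% identity, 100 bases aligned). The intervals were tested on simulated Poisson counts. These lack the clumping of UMIs in single cells seen here, so that test does not cover it. With 1 library per age no p-value was computed.

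The 10 genes and the gene lists were chosen with earlier results of these data known. The text names the 10 genes, the 3 genes most like each one with at least 200 UMIs, and, of the other pathway genes, the 3 highest and 3 lowest ratios of a comparison and 8 set enzymes and transporters. Genes named outside this rule were chosen after their values were seen. Alternatives were other fold and UMI limits, other cell filters and clusterings, means over cells, and leaving out tags, deep cells, cells of other types or shallow clusters.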

Additional observations from a re-analysis of the deposited data

How the results depend on the processing

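No paired analysis was possible because each age has 1 library. Of the values for single genes, 458 stayed within the main interval under the alternatives, 42 moved and 1 that was past 2-fold changed direction: Pfkp in neuron-like cells, P24-30 over P12, was at 0.955 without cells of other types, against 2.70 with them. In 10 cases, Pfkp included, the value left the interval and came to lie on the other side of 1, all of them ratios between ages, such as Ldhb in neuron-like cells, at 0.94 without cells of other types against 1.23 with them. The counts of genes past 2-fold depended on the limits. Except where a share of all genes is given, the counts below have no background beside them. They describe the calls only and say nothing of the 10 genes as a group. With at least 200 UMIs required, 2 genes passed in each of P12 neuron-like, P12 microglia-like and P24-30 neuron-like over cycling cells (main counts 4, 4 and 5), and 0 between ages in cycling (1) and neuron-like (2) cells. The glial count of 3 was 5 of 7 at a fold of 1.5, where 50.1% of all genes passed. It was also 5 at Leiden resolution 0.5 and with both tables clustered together. Clusters in place of tags gave 3 for P24-30 neuron-like cells. The neuron-like age count of 2 was 1 by means over cells, without the 5% of cells with the most UMIs, without cells of other types and without shallow clusters, and 0 by clusters and without tag G13. The cycling age count was 0 as a plain CPM ratio and without shallow clusters.

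Share differences, neuron-like minus cycling in percentage points, kept their sign for Hk2, Ldhb and Pfkp under the alternatives named here. Pfkp at P24-30 (main 30.7) was 16.1 by means over cells, 10.3 without the deepest 5%, 12.7 by clusters, 13.7 without G13 and 9.81 without other types. Ldhb at P24-30 (37.1) was 29.7 by means over cells, 29.9 without the deepest 5% and 43.8 by clusters. Ldhb at P12 (40.4) was 32.6 at Leiden resolution 2 and 27.4 with both tables together, where Hk2 (-33.2) was -13.3. Hk2 at P24-30 (-37.5) was -22.4 without other types. Slc2a3 at P24-30 (4.51) was -20.7 without shallow clusters. Leaving out other types and shallow clusters was chosen after seeing the data. The causes of these shifts were not tested. Slc2a1, Hk1, Pfkl and Pfkp, with 104 UMIs or fewer per library, are limited by depth.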

Other observations

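In glial P12 cells 7 of the 38 listed pathway genes with at least 50 UMIs were at least 2-fold higher and 3 at least 2-fold lower, where 28.7% of all genes passed in either direction. Aldoc, the aldolase of astrocytes and a textbook marker of them, stood at 323 CPM in glial cells, against 6.76 CPM in cycling cells, a ratio of 47.7 (33.6 to 68.4). Pfkfb3, which makes the activator of phosphofructokinase, was at 25.4 CPM in glial cells on 7 UMIs, against 6.63 CPM in cycling cells (3.83, 1.47 to 8.45). Ankrd37 was at 3.16 (1.22 to 6.89), and Tigar, which lowers that activator, at 0.26 (0.03 to 0.96).

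In microglia-like cells 9 of 38 pathway genes were at least 2-fold higher than in cycling cells and 5 at least 2-fold lower, where 44.9% of all genes passed in either direction. Pfkfb3 stood at 88.4 CPM on 18 UMIs, against 6.63 CPM in cycling cells, a ratio of 13.3 (7.34 to 23.2). Aldoa stood at 408 CPM, against 46.8 CPM (8.71, 6.78 to 11.1), and Bnip3 at 59.0 CPM, against 7.14 CPM (8.26, 4.03 to 15.6). Pdhb, a subunit of pyruvate dehydrogenase, was lower, at 24.6 CPM against 69.0 CPM (0.36, 0.12 to 0.84). Pcx and Egln1 had 1 UMI each in microglia-like cells.

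The 11 kept cells of tag G9, of 50 in the table, held Ldhb at 410 CPM (265 to 605) and a Ldhb share of 80.6% (62.5 to 92.5) on 31 lactate dehydrogenase UMIs, of which 1 cell held 15 of the 25 Ldhb UMIs, with Hk2 at 49.2 CPM on 3 UMIs.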
